A study of Homo sapiens with 4 samples.

Results

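The baseline transcriptome of NCI-H1048 was read from 1 of the 4 libraries of the series, the library of cells that had received a non-targeting guide RNA (gRNA) and that carry the genotype label WT. NCI-H1048, a widely used cell line from a human small cell lung cancer, is called tuft cell-like in the title of the study. Every gene symbol in that library was included, with rows of the same symbol summed, which gave 35979 symbols, of which 19796 were protein-coding genes of the annotation. The other 3 libraries come from the same line and are labelled as knockouts: 1 with a POU2F3 gRNA and 2 with different COLCA2 gRNAs. They are used here only side by side, because they are edited cells and not replicates of the baseline. All 4 libraries were made from poly(A) RNA of the line with no treatment named. Whether the cells were clones or a mixed population after editing is not given in the sources used here.

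Tuft cells are rare chemosensory cells of airway, gut and other epithelia. They resemble taste cells in their signalling: receptors at the apical surface act through a G protein and phospholipase C to release calcium, which opens the channel TRPM5, and the cells make eicosanoids, acetylcholine and the cytokine IL-25. The POU-domain factor POU2F3 specifies them, and COLCA2 and C11orf53 encode coactivators related to OCA-B, the B cell coactivator of octamer-binding POU factors. Small cell lung cancers are mostly neuroendocrine, and those that express POU2F3 form a type with few neuroendocrine features.

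The library held 25435970 reads assigned to genes, against 21587741 to 29632382 in the other libraries. With no second baseline library there is no test of any level here. Precision is given in 3 ways: exact 95% Poisson intervals on the reads, which cover counting error only, since PCR copies of a molecule are not separated; the spread between the 2 COLCA2 libraries, which use different guides; and the spread between choices of transcript length. The COLCA2 libraries differed by a median of 0.09 on the log2 scale for genes above 1000 normalized counts, by 0.14 from 100 to 1000 and by 0.35 from 20 to 100. The 95th percentiles were 0.29, 0.54 and 1.36 in the same order. Levels of different genes are given per length, as the normalized count per kilobase of the principal transcript, rescaled to sum to 1000000 over the library (ppm). Taking the longest transcript instead moved a detected gene by a median of 0.25 on the log2 scale, with a 95th percentile of 0.97. The median transcript length moved it by a median of 0.86, with a 95th percentile of 2.14. So 2 genes whose ppm differ by less than 0.86 on that scale have no firm order. Larger differences can also change order with the choice of length. In RNA from a whole culture, fewer cells with a transcript and less of it per cell cannot be told apart.

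A gene was called detected at 20 or more normalized counts. By that measure 13968 of the 19796 protein-coding genes (70.6%) were detected, 3973 (20.1%) had 3 reads or fewer, and 2838 of these had none. Detected genes had a median of 19.5 ppm, with 5% below 0.908 ppm and 5% above 215 ppm. "High" is used below for the top 10% of detected protein-coding genes, which began at 118 ppm and held 1397 genes, or 7.06% of all protein-coding genes. For the counts of every list below, the shares to compare with are those over all protein-coding genes. They are 70.6% detected, 20.1% at 3 reads or fewer and 7.06% high. As a check, 316 genes named as subunits of complexes of general use were examined. These ran from the ribosomes to RNA polymerase II, the spliceosome and the proteasome. Of the 316 genes, 314 were detected, and the other 2 were PSMA8 and PSMB11, proteasome subunits of testis and thymus. The complexes had median levels from 71.0 to 1548 ppm. The check therefore cannot show whether zeros of low genes or of close paralogs are failed estimates.

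The most abundant transcripts were those of respiration, translation and the cytoskeleton. The 20 highest protein-coding genes included genes for subunits of the mitochondrial respiratory chain. MT-CO1 was at 11378 ppm, MT-CO3 at 10930 ppm, MT-CO2 at 10887 ppm, MT-ND4 at 9610 ppm and MT-ND1 at 9370 ppm. MT-ND2 was at 7606 ppm, MT-CYB at 5636 ppm, MT-ND4L at 5220 ppm and MT-ND3 at 4857 ppm. MT-ATP8 at 10592 ppm and MT-ATP6 at 9767 ppm, also among the 20, encode subunits of the mitochondrial ATP synthase. The nuclear genes among the 20 included TMSB10, an actin-binding thymosin, at 5375 ppm, RPL41 at 4938 ppm and GAPDH at 4617 ppm. The chromatin-associated PTMA was at 4492 ppm, RPS18 at 3966 ppm, the tubulin TUBA1B at 3652 ppm and RPS27 at 3599 ppm. MTRNR2L12, also among the 20 at 4449 ppm, resembles the mitochondrial ribosomal RNA, so its reads cannot be assigned with certainty. The 13 mitochondrially encoded protein genes took 3.96% of the reads and 87 cytoplasmic ribosomal protein genes 5.76%. The 10 most abundant symbols held 4.21% of the reads and the 100 most abundant 16.3%. Of the 100 highest genes by ppm, 89 were also among the 100 highest with the POU2F3 gRNA, and 90 with each COLCA2 gRNA.

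**Figure D1:**
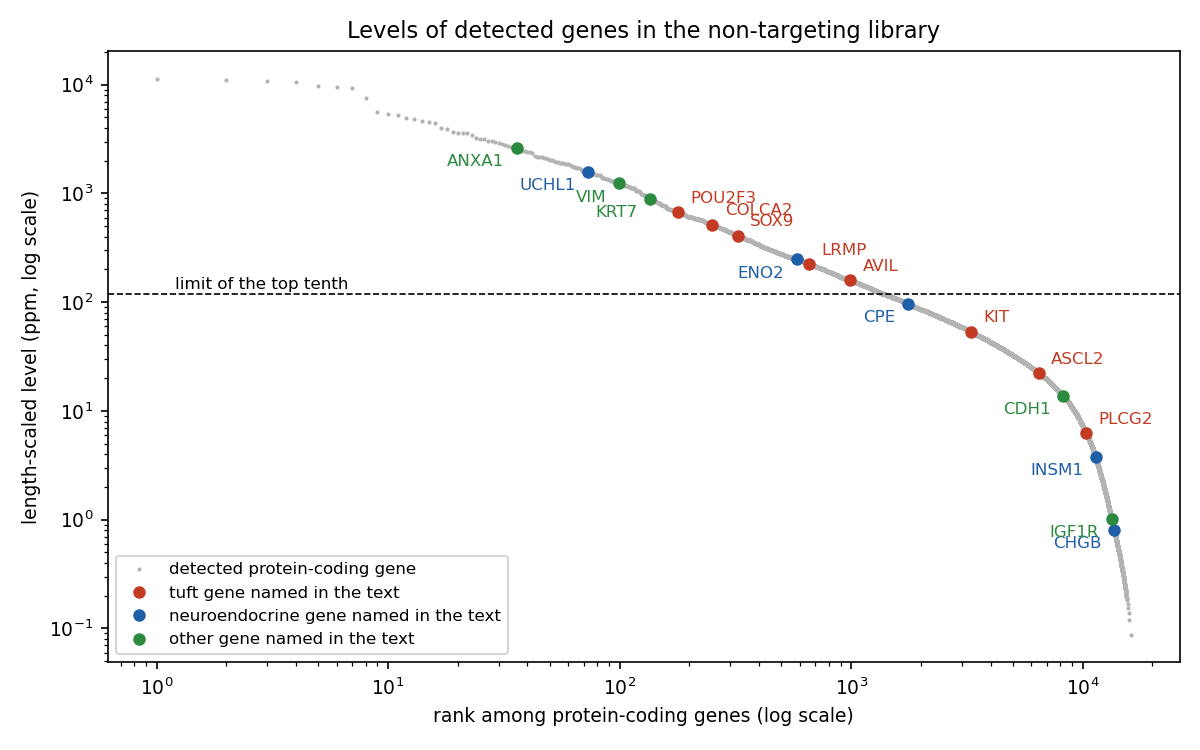
Length-scaled level in ppm (log scale) of each detected protein-coding gene against its rank (log scale) in the non-targeting library. The tuft genes POU2F3, COLCA2, SOX9, LRMP and AVIL lie above the dashed limit of 118 ppm for the top 10%, while the neuroendocrine genes range from UCHL1 near the top to CHGB at the lower end.

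The 4 genes used to mark tuft-like cells were all high. POU2F3 (ENSG00000137709, chromosome 11, 120236640 to 120319944 on the plus strand in GRCh38) had 14602 normalized counts, or 673 ppm with an interval of 663 to 684 ppm, and ranked 178 of the protein-coding genes. SOX9 (ENSG00000125398, chromosome 17, 72121020 to 72126420, plus strand), a SOX factor of epithelial progenitors and cartilage, had 17848 normalized counts, 408 ppm and rank 324. LRMP (ENSG00000118308, chromosome 12, 25004342 to 25108334, plus strand), a membrane protein bound to the inositol trisphosphate receptor and abundant in lymphoid and taste cells, had 6229 normalized counts, 224 ppm and rank 658. AVIL (ENSG00000135407, chromosome 12, 57797376 to 57818704, minus strand), advillin, an actin-severing protein of tuft cell microvilli and sensory neurons, had 5093 normalized counts, 159 ppm and rank 988. With the median transcript length in place of the principal transcript, POU2F3 was at 322 ppm and SOX9 at 178 ppm.

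The same markers were lower in each edited library. POU2F3 was at 65.9 ppm with the POU2F3 gRNA and at 156 and 103 ppm with the COLCA2 gRNAs. SOX9 was at 171 ppm with the POU2F3 gRNA and at 178 and 144 ppm with the COLCA2 gRNAs. LRMP was at 9.22, 26.8 and 19.1 ppm in the same order, and AVIL at 7.42, 28.4 and 21.9 ppm. The baseline library thus held the highest of the 4 values for every marker, and the values of the other libraries did not reach it. Because there is 1 baseline library, an effect of editing and a difference between cultures cannot be told apart for any gene.

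Promoters of tuft genes are shown because the octamer is the sequence that POU2F-class factors bind. The windows are RefSeq promoters (GRCh38.p14) from 250 bases before to 50 after the annotated start, and 14952 protein-coding genes of the library matched at least 1 window, for 21121 windows in all. The octamer ATGCAAAT, searched on both strands, lay in 1.52% of all these windows, in 1.43% of the windows of detected genes and in 1.80% of those of genes at 3 reads or fewer. Of the 36 tuft genes examined below, 23 matched, with 34 windows, and 4 of these windows held the octamer, those of HMX2, ITPR3, SUCNR1 and 1 of the windows of BMX. They are printed 5′ to 3′ on the gene's strand with the octamer or its reverse complement in capitals, followed by the AVIL window, where that exact octamer was not found. HMX2 is a homeobox factor, ITPR3 an inositol trisphosphate receptor, SUCNR1 the succinate receptor and BMX a TEC family kinase.
HMX2, chr10:123147886-123148185, plus strand: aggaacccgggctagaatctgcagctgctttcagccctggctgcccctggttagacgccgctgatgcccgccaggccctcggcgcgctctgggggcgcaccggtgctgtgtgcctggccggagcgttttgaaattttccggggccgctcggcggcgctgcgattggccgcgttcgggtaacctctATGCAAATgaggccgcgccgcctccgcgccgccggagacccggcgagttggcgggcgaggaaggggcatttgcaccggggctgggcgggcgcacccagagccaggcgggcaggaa
ITPR3, chr6:33621072-33621371, plus strand: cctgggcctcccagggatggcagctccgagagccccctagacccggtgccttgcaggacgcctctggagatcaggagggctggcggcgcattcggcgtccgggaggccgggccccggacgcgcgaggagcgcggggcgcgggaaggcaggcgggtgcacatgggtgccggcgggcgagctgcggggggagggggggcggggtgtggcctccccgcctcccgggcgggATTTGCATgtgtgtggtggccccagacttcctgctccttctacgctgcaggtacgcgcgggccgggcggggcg
SUCNR1, chr3:151873393-151873692, plus strand: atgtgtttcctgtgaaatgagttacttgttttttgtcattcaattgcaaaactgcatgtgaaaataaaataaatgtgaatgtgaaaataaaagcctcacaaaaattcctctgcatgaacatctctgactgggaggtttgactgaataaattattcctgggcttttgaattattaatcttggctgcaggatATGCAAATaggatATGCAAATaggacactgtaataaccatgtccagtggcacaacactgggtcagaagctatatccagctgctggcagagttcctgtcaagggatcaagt
BMX, chrX:15507058-15507357, plus strand: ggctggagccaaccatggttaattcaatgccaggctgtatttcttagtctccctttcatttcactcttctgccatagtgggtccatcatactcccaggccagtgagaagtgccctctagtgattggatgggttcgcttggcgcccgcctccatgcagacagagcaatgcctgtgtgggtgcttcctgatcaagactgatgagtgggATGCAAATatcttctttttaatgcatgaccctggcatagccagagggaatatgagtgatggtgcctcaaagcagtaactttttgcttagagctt
AVIL, chr12:57818685-57818984, minus strand: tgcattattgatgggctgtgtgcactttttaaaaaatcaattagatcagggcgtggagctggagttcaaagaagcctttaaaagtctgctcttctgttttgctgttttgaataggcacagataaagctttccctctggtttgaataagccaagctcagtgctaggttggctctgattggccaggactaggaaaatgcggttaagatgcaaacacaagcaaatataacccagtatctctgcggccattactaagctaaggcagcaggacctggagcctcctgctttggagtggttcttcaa
A match describes the window only and is no evidence of binding. SUCNR1 held the octamer at 2 positions. The levels of these genes spanned a wide range, from 93.2 ppm for HMX2 and 78.4 ppm for ITPR3 to 26.7 ppm for BMX and 4.44 ppm for SUCNR1.

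The tuft list as a whole had 27 of 36 members detected, or 75%, near the 70.6% of all protein-coding genes. Of the 36 members 8 were high, where 7.06% of all protein-coding genes were. The 8 include the markers POU2F3, SOX9, LRMP and AVIL, which were set in advance, and COLCA2, a target of guides in the series. The count is therefore no independent support for a tuft identity. The list had a median of 7.70 ppm against 7.59 ppm over all protein-coding genes. Its members ranged from POU2F3 at 673 ppm to genes with no read. With the median transcript length 5 members were high in place of 8. Among the regulators, COLCA2 was at 516 ppm and C11orf53 at 138 ppm, and both coactivator genes lie next to each other on chromosome 11. The homeobox factor HMX2 was at 93.2 ppm, the zinc finger repressor GFI1B at 69.8 ppm and the basic helix-loop-helix factor ASCL2 at 22.3 ppm. Among enzymes and signalling genes, ALOX5, the 5-lipoxygenase that starts leukotriene synthesis, was at 227 ppm and RGS13, a regulator of G protein signalling, at 149 ppm. The IL-25 receptor subunit IL17RB reached 98.3 ppm, the stem cell factor receptor KIT 53.6 ppm, and HEPACAM2, an adhesion protein of tuft and enteroendocrine cells, 38.5 ppm.

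Other members of the list had lower levels. GNAT3, the taste G protein alpha subunit, was at 12.3 ppm, and the phospholipases PLCG2 and PLCB2 were at 6.24 and 1.70 ppm. DCLK1, a kinase often used to stain tuft cells, had 332 normalized counts and 5.25 ppm, against medians of 295 normalized counts and 7.59 ppm over all protein-coding genes. TRPM5 had 2 reads, and HPGDS, IL25 and INSRR had none, which at this depth allows up to 3 reads each. The taste receptor subunit TAS1R3 had 5.73 normalized counts, GNG13 6.68, the 5-lipoxygenase activating protein gene ALOX5AP 7.64, the acetylcholine-synthesizing CHAT 10.5 and the cyclooxygenase gene PTGS1 13.4, all under the detection limit. MATK, a kinase related to CSK, was at 3.97 ppm. POU2F3, COLCA2, C11orf53, AVIL and ALOX5 were thus high, while the transduction channel TRPM5, the prostaglandin D synthase HPGDS and IL25 were not detectable at this depth.

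In the edited libraries several high tuft genes were at lower levels. ALOX5 was at 17.9 ppm with the POU2F3 gRNA and at 41.7 and 35.5 ppm with the COLCA2 gRNAs, and RGS13 was at 7.51, 48.1 and 40.4 ppm. IL17RB was closer across the libraries, at 61.3, 65.0 and 61.0 ppm. The summed level of the 36 genes was 3033 ppm at baseline, 647 ppm with the POU2F3 gRNA, and 1040 and 938 ppm with the COLCA2 gRNAs. These sums include the guide targets POU2F3 and COLCA2, at 673 and 516 ppm at baseline and at 65.9 and 127 ppm with the POU2F3 gRNA. With the COLCA2 gRNAs POU2F3 was at 156 and 103 ppm and COLCA2 at 265 and 309 ppm. The markers SOX9, LRMP and AVIL are also in the sums. The detected members numbered 27, 23, 26 and 27 in the same order.

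**Figure D2:**
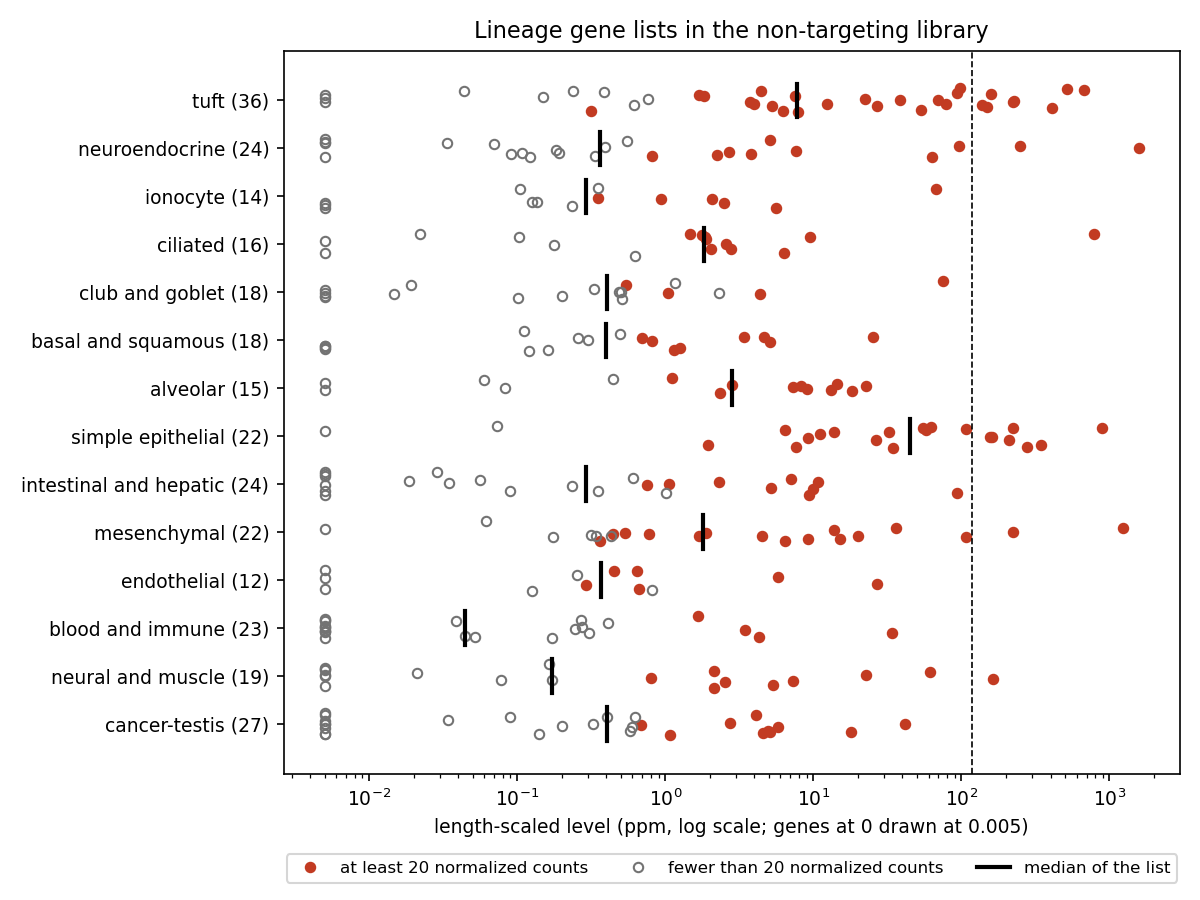
Length-scaled level in ppm (log scale) of every member of 14 lineage lists in the non-targeting library. Filled points are detected genes, open points have fewer than 20 normalized counts, genes at 0 are drawn at 0.005 ppm, bars are list medians and the dashed line is the 118 ppm limit of the top 10%.

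The neuroendocrine list ranged from genes among the most abundant to genes with no read. UCHL1, a neuronal ubiquitin hydrolase, was at 1583 ppm and ranked 73, and the enolase ENO2 was at 247 ppm. The peptide-processing enzyme CPE was at 96.0 ppm and the adhesion molecule NCAM1 at 63.7 ppm. SNAP25, a protein of vesicle fusion, followed at 7.67 ppm. The factor INSM1 had 118 normalized counts and 3.77 ppm, and DLL3, a Notch ligand used as a target in small cell lung cancer, 116 normalized counts and 5.06 ppm. The neurogenic factor NEUROD1 had 3 reads. CHGA, GRP, CALCA and PCSK1, which encode granule cargo, neuropeptides and a prohormone convertase, had no read. In all, 10 of the 24 members were detected and 2 were high, with a median of 0.36 ppm. In the edited libraries UCHL1 was at 1102, 1274 and 1210 ppm and 12 or 13 members were detected.

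The UCHL1 promoter window is printed because its gene was the highest of the neuroendocrine list. The TATA motif TATAAA, or its reverse complement as in this window, lay in 6.48% of the windows of detected genes and in 20.2% of the windows of genes at 3 reads or fewer.
UCHL1, chr4:41256678-41256977, plus strand: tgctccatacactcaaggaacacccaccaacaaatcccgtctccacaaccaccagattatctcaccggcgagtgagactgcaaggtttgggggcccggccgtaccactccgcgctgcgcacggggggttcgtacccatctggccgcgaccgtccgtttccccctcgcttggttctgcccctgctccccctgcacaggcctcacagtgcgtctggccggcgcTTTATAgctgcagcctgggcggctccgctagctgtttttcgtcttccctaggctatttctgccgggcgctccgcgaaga
The capitals mark the motif. CpG dinucleotides were more frequent in windows of detected genes, with a median of 24 for each window, than in those at 3 reads or fewer, with a median of 5. The 34 windows of tuft genes had a median of 9.5. These windows differ in number for each gene, so the medians describe windows and not genes.

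Genes of simple epithelium were well represented, with 20 of 22 members detected and 7 high, or 4 high with the median transcript length. The keratin KRT7 was at 893 ppm, the protease inhibitor SPINT2 at 342 ppm, KRT18 at 278 ppm, the protease ST14 at 224 ppm and the adhesion molecule EPCAM at 208 ppm. E-cadherin, CDH1, was at 13.8 ppm. KRT20 had no read. The median of the list, 45.0 ppm, was the highest of the 14 lineage lists.

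Mesenchymal genes were detected for 16 of 22 members, or 72.7%, near the 70.6% of all protein-coding genes. Of the 22 members 2 were high, or 3 with the median transcript length or by counts, where 7.06% of all protein-coding genes were high. Vimentin, VIM, was at 1236 ppm and the factor TWIST1 at 222 ppm. Fibronectin, FN1, followed at 107 ppm, the smooth muscle actin ACTA2 at 36.0 ppm and the N-cadherin gene CDH2 at 20.1 ppm. The collagens COL1A2 and COL3A1 were at 0.17 and 0.78 ppm, the fibroblast protease gene FAP at 0.34 ppm and the calcium-binding S100A4 had no read. In the edited libraries VIM was at 3338, 1761 and 1714 ppm.

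The ionocyte list had 6 of 14 members detected. Its defining factor FOXI1 was at 67.0 ppm, while the chloride channel gene CFTR had 8.59 normalized counts, ASCL3 1 read and the proton pump subunit ATP6V1G3 none. ATP6V1B1 was at 5.63 ppm, RARRES2 at 2.498 ppm, TMPRSS11E at 2.05 ppm and PDE1C at 0.94 ppm. FOXI1 was at 12.7, 17.9 and 13.3 ppm in the edited libraries. The ciliated list had 10 of 16 members detected, with 1 high, the tubulin TUBB4B at 786 ppm, which dividing cells also use. MCIDAS, an activator of multiciliation, was at 9.51 ppm, CAPS at 6.38 ppm, DNAAF1 at 2.78 ppm and TPPP3 at 2.58 ppm. The ciliary dynein genes DNAI1 and DNAI2 had 3 reads and none.

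Airway secretory and basal genes were mostly undetected. Of the club and goblet list 4 of 18 members were detected, led by WFDC2 at 75.5 ppm. SCGB1A1, BPIFA1, LYPD2 and FOXA3 had no read, MUC5AC 3 reads and MUC5B 4 reads. Of the basal and squamous list 8 of 18 were detected and none was high, with KRT17 at 25.5 ppm, SOX2 at 5.10 ppm, KRT15 at 4.63 ppm, KRT5 at 3.40 ppm and the factor TP63 at 0.70 ppm. KRT17 was at 512 ppm with the POU2F3 gRNA and at 833 and 1011 ppm with the COLCA2 gRNAs. The alveolar list had 10 of 15 members detected and none high, and NKX2-1, a factor of lung and thyroid, was at 14.4 ppm. The surfactant genes SFTPD and SFTPA1 had no read and SFTPC 1 read.

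In the gut, liver and pancreas list, 9 of 24 members were detected, with the pioneer factor FOXA1 at 92.9 ppm, GATA6 at 10.7 ppm, PDX1 at 10.01 ppm and CDX2 at 9.40 ppm. HNF4A, TTR, APOB, FABP1 and MUC2 had no read. Blood and immune genes had 4 of 23 members detected, and CORO1A, a leukocyte actin regulator, was the highest at 34.1 ppm. CD3E, CD3D, MS4A1, CSF1R, HBB, CPA3 and TPSAB1 had no read, and PTPRC had 16.2 normalized counts. The summed level of the 23 genes was 45.3 ppm at baseline and 35.1 to 37.7 ppm in the other libraries. Endothelial genes had 6 of 12 detected, led by EGFL7 at 26.9 ppm, with CDH5, KDR and ERG at no read. Of the neural and muscle list 9 of 19 were detected, with the tubulin TUBB3 high at 164 ppm, MBP at 61.6 ppm, MAP2 at 22.6 ppm, OLIG2 at 7.33 ppm and MITF at 5.36 ppm. SOX10, DES, MYOD1 and MYOG had no read. Of 27 genes normally kept to germ cells 10 were detected, with PRAME at 41.8 ppm and MAGEC2 at 17.9 ppm. MAGEA3 and MAGEA6, near-identical copies whose reads can be split, were at 5.76 and 5.08 ppm.

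Across 506 transcriptional regulators from the POU, SOX, helix-loop-helix, homeobox, forkhead, zinc finger, signal-responsive, MYC and nuclear receptor lists, 374 were detected and 84 had 3 reads or fewer. DLX5, a homeobox factor of bone and placode development, had the highest level per length at 816 ppm, with POU2F3 next at 673 ppm. The inhibitors of helix-loop-helix factors ID3, ID1 and ID2 followed at 542, 320 and 227 ppm, with ID4 at 109 ppm. MYC was at 538 ppm, the immediate early factor EGR1 at 446 ppm, SOX4 at 414 ppm, the epithelial ETS factor EHF at 393 ppm and the homeobox factor HMX3 at 378 ppm. TWIST1, JUND, the mitotic factor FOXM1, TCF3 and HES6 lay between 157 and 222 ppm. The order continued with NFIX at 146 ppm, NFIC at 145 ppm, HOXC10 at 139 ppm, TEAD2 at 138 ppm, BATF3 at 137 ppm, the nuclear receptor NR2F6 at 132 ppm and MSX2 at 127 ppm. Neighbours in that order, such as DLX5 and POU2F3, MYC and ID3 or SOX4 and SOX9, differed by less than the choice of transcript length moves a gene. By normalized count POU2F3, at 14602, was above DLX5, at 12882. SOX4 at 26921, SOX9 at 17848 and EGR1 at 15532 normalized counts were above both.

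**Figure D3:**
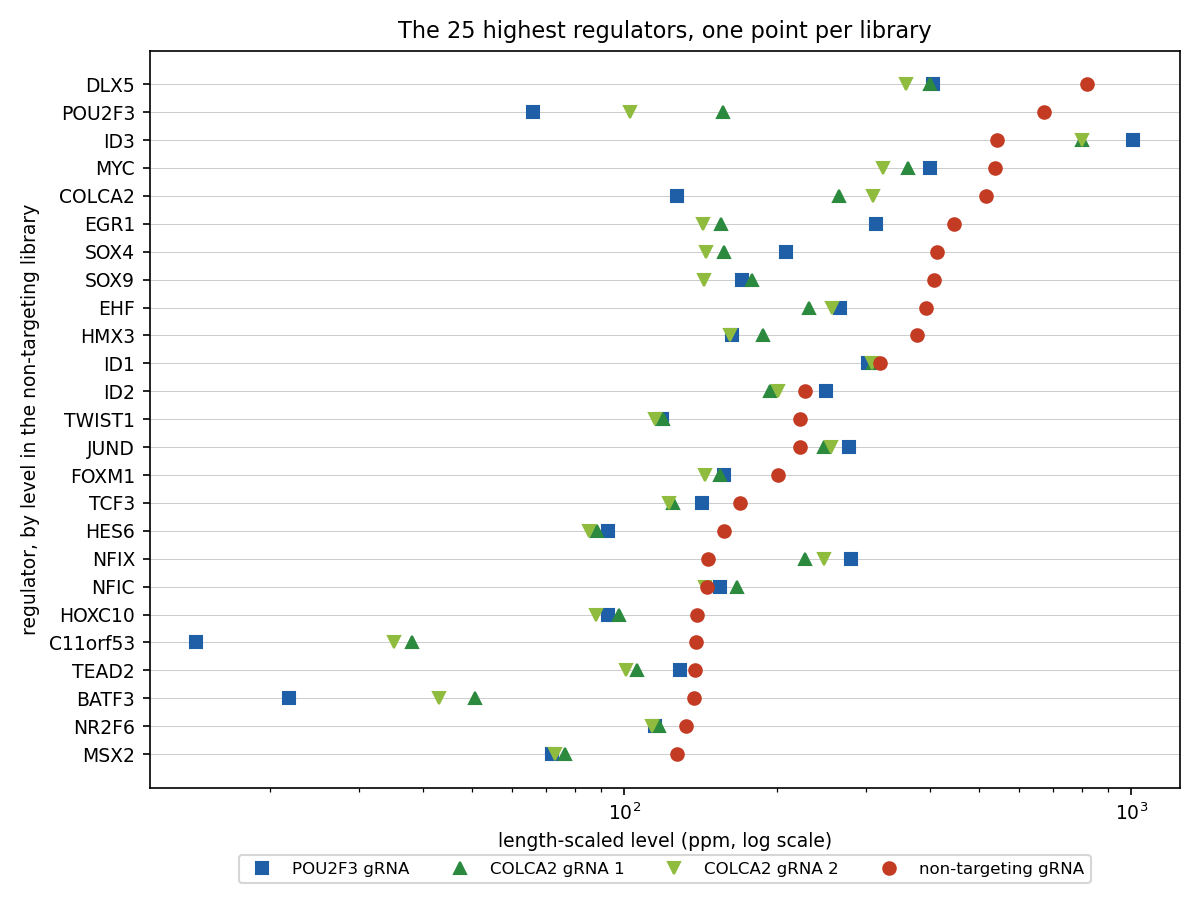
Length-scaled level in ppm (log scale) of the 25 highest regulators of the non-targeting library, with 1 point for each of the 4 libraries. DLX5 heads the order at 816 ppm at baseline, ID3 heads it in the edited libraries, and POU2F3, C11orf53 and BATF3 lie furthest from their baseline values.

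Of the 25 highest regulators at baseline, 18 were among the 25 highest with the POU2F3 gRNA, and 19 and 18 with the COLCA2 gRNAs. DLX5 was at 406, 401 and 359 ppm there and stayed at the second place of the 506. ID3 was at 1007, 801 and 798 ppm and took the first. BATF3, an AP-1 partner known from dendritic cells, was at 21.8, 50.7 and 43.0 ppm.

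Within the POU list, which includes the coactivators, 12 of 18 members were detected, or 7 at a minimum of 100 normalized counts. After POU2F3 the highest POU factors were POU6F1 at 18.3 ppm and POU2F1, the ubiquitous OCT1, at 9.17 ppm. POU2F2, the lymphoid OCT2, had 15.3 normalized counts, and POU2AF1, which encodes OCA-B, was at 2.48 ppm. The POU4 factors, all 3 of sensory neurons, had no read. Of 20 SOX factors 11 were detected, with SOX13 at 79.0 ppm and SOX12 at 70.1 ppm after SOX4 and SOX9, and SOX18 at 12.2 ppm.

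Helix-loop-helix factors had 20 of 51 members detected and 21 at 3 reads or fewer. Apart from ID1, ID2, ID3, TWIST1, TCF3, HES6 and HES4 (122 ppm) none was high. Homeobox factors outside the HOX clusters were detected for 71 of 87 members. By the principal transcript 4 were high, and 2 with the median transcript length or by counts. The high members included DLX5, HMX3 and MSX2, while HMX1 at 101 ppm and HMX2 at 93.2 ppm lay just below the limit. Brain, heart and gut factors were detected side by side, with OTX2 at 61.7 ppm, NKX2-5 at 54.5 ppm, BARX1 at 54.4 ppm, ISL1 at 33.9 ppm and PAX6 at 21.4 ppm. Of 39 HOX genes 34 were detected, led after HOXC10 by HOXA9 at 78.2 ppm, HOXC9 at 62.0 ppm, HOXC6 at 38.9 ppm and HOXC4 at 34.9 ppm. HOXD13, the most distal gene of its cluster, was at 29.7 ppm, and the highest HOXB gene, HOXB7, at 16.3 ppm.

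Forkhead factors had 27 of 43 detected, with FOXM1 at 201 ppm, FOXA1 at 92.9 ppm, FOXI1 at 67.0 ppm, FOXN3 at 62.9 ppm and FOXK2 at 61.8 ppm. FOXA2 had 16.2 normalized counts and FOXA3 none. The GATA, KLF and GFI list had 56 of 71 members detected with EGR1 alone high, and SP1 was at 90.4 ppm, GFI1B at 69.8 ppm, KLF16 at 62.5 ppm and the insulator protein CTCF at 55.1 ppm. GFI1, the paralog of GFI1B, was at 1.78 ppm. Among signal-responsive factors 96 of 116 were detected and 7 were high, EHF, JUND, NFIX, NFIC, TEAD2, BATF3 and the hypoxia factor HIF1A at 126 ppm. The ETS paralog of EHF, ELF3, was at 7.65 ppm, and YAP1 was at 12.98 ppm with its paralog WWTR1 at 38.9 ppm. In the MYC network all 13 members were detected, and MYC made up 97.7% of the summed MYC, MYCL and MYCN levels, with MYCL at 10.6 ppm and MYCN at 1.85 ppm.

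Cell cycle and tumour suppressor genes were detected for 49 of 50 members. The DNA repair enzyme PARP1 was at 471 ppm, the CDK inhibitor CDKN2A, p16, at 403 ppm, CDK4 at 204 ppm, HRAS at 176 ppm and CDK2 at 166 ppm. The retinoblastoma gene RB1 was at 3.01 ppm with an interval of 2.58 to 3.51 ppm, and its paralogs RBL1 and RBL2 were at 14.3 and 10.4 ppm. RB1 was at 2.75, 2.15 and 3.24 ppm in the edited libraries, and CDKN2A at 568, 584 and 591 ppm. CCND2 had no read in any of the 4 libraries, while CCND3 was at 82.9 ppm and CCND1 at 15.04 ppm. SLFN11, which is followed as a marker of response to DNA damage, was at 26.6 ppm.

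Chromatin regulators were detected for 77 of 80 members, and 9 were high, or 22 with the median transcript length and 27 by counts. The highest were HMGA1 at 481 ppm, HDAC1 at 250 ppm, the remodeller ATPase SMARCA4 at 218 ppm, PHF10 at 180 ppm and the histone demethylase KDM1A at 178 ppm. EZH2 was at 99.4 ppm against 14.1 ppm for EZH1. DNMT3L had no read. Of 17 BCL2 family genes 15 were detected, and BAX at 217 ppm, MCL1 at 149 ppm and BAD at 144 ppm were high, although none of the list was with the median transcript length and 1 was by counts. BCL2L11 was at 81.4 ppm, PMAIP1 at 73.0 ppm and BCL2 itself at 23.8 ppm. BCL2A1 had no read. RNA-binding regulators had 26 of 33 detected, led by the splicing repressor PTBP1 at 544 ppm, RBFOX2 at 230 ppm, CELF1 at 135 ppm, PTBP3 at 87.5 ppm and ELAVL1 at 68.0 ppm. The neuronal splicing factor SRRM4 had 11.5 normalized counts, and NOVA1 and ELAVL4 had none.

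The receptor lists together had a median of 1.43 ppm, against 11.8 ppm for the regulator lists and 28.2 ppm for the metabolic lists. The median over all protein-coding genes was 7.59 ppm. The regulator lists include chromatin and cell cycle genes. The receptor lists also hold innate immune genes and 31 targets of antibodies or imaging agents, not all of them receptors. Of the genes on the receptor lists 250 of 401 were detected, or 62.3%, against 70.6% of all protein-coding genes. By the principal transcript 8 of them were high, compared with 50 of 669 regulator and 78 of 382 metabolic genes. Of these 8, 4 were on the list of antibody and imaging targets. Of all protein-coding genes 7.06% were high. Of 58 receptor tyrosine kinases 46 were detected, and DDR1, a collagen receptor, was the only one above 118 ppm, at 195 ppm. It had 6 rows that were summed. With the median transcript length 2 of these kinases were high, and ranked by counts 5 were. PTK7 was at 105 ppm, EPHB4 at 81.6 ppm, EGFR at 62.4 ppm, RYK at 59.6 ppm, KIT at 53.6 ppm and MET at 51.6 ppm. ERBB3 was at 32.4 ppm and ERBB2 at 21.7 ppm. The insulin-like growth factor receptor IGF1R had 138 normalized counts and 1.01 ppm, with an interval of 0.85 to 1.19 ppm, and its paralog INSR was at 20.3 ppm. KDR, INSRR and CSF1R had no read. EGFR was at 23.6, 28.5 and 27.4 ppm in the edited libraries, KIT at 25.9, 24.4 and 24.7 ppm and IGF1R at 2.12, 2.82 and 3.32 ppm, so that EGFR and KIT had their highest value at baseline and IGF1R its lowest.

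**Figure D4:**
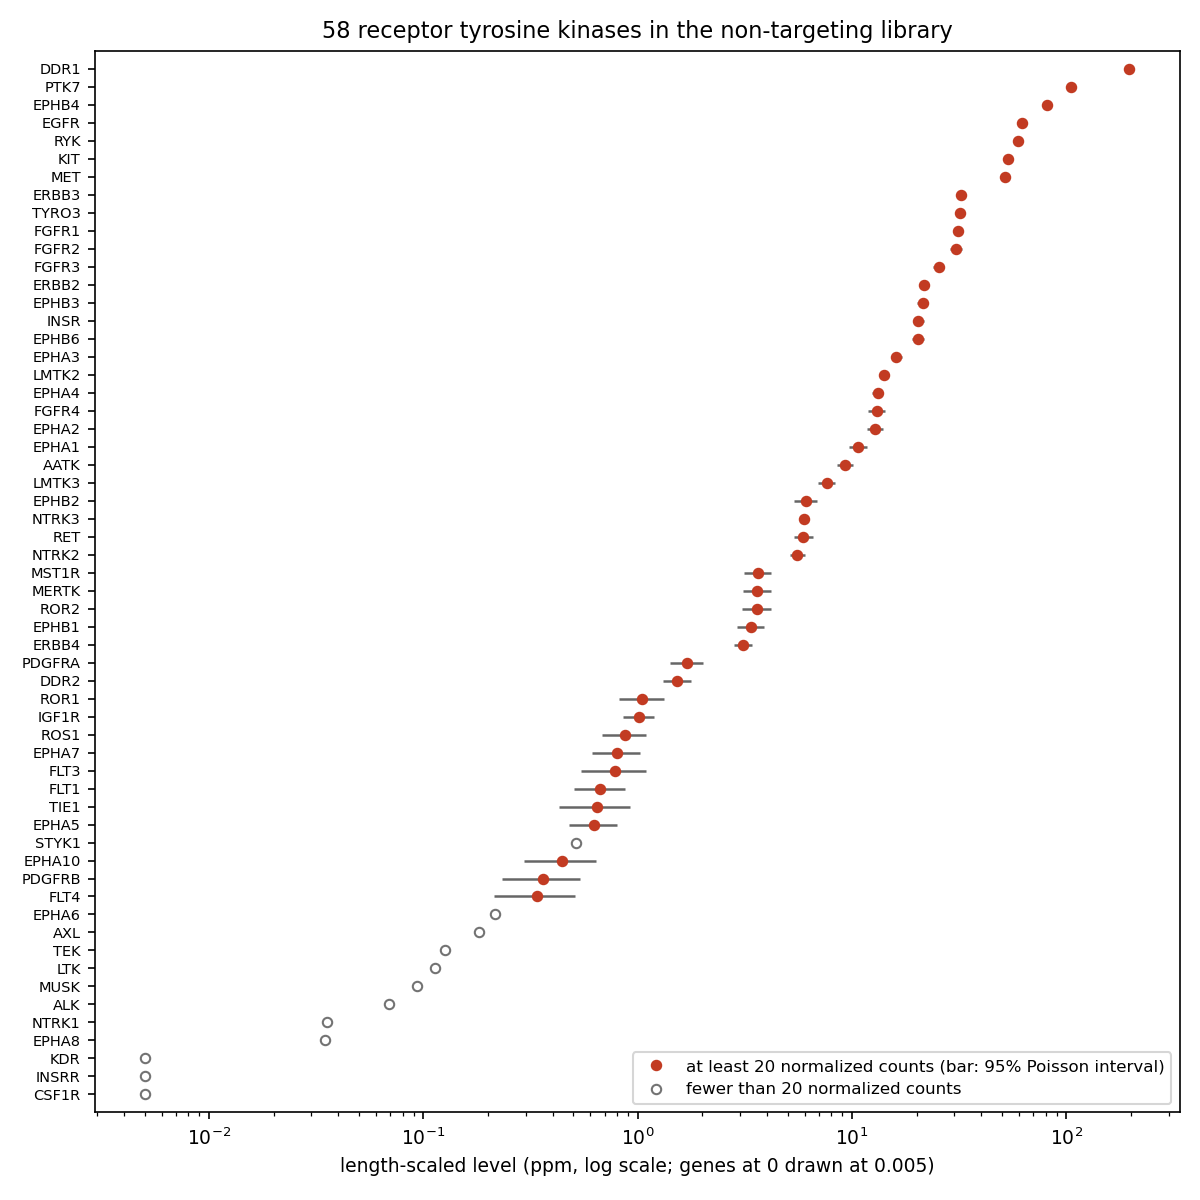
Length-scaled level in ppm (log scale) of 58 receptor tyrosine kinases in the non-targeting library, in descending order, with 95% Poisson intervals for detected genes. The order runs from DDR1 at 195 ppm to KDR, INSRR and CSF1R, which had no read and are drawn at 0.005 ppm.

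Cytokine receptors were detected for 40 of 51 members, and IL13RA1 at 119 ppm and IFNGR2 at 119 ppm lay just above the limit of the top 10%. With the median transcript length, or ranked by counts, 1 member of the list was high. With IL17RB at 98.3 ppm these were the 3 highest, followed by IL10RB at 28.7 ppm and IL17RC at 27.0 ppm. IL4R, the partner of IL13RA1, was at 18.7 ppm and IL17RA, the partner of IL17RB, at 8.93 ppm. IL13RA1 was at 61.1, 62.3 and 61.2 ppm in the edited libraries. IL1RL1, the receptor of IL-33, had no read, nor did IL5RA and CSF2RB. TNF receptors had 19 of 28 detected and none high, with TNFRSF21 at 67.2 ppm, TNFRSF18 at 52.95 ppm, TNFRSF1A at 36.7 ppm, TNFRSF25 at 30.1 ppm and TNFRSF10B at 25.3 ppm. TGF-beta family receptors had 11 of 14 detected, with TGFBR1 at 24.3 ppm but its partner TGFBR2 at 0.63 ppm. ACVR1B was at 24.1 ppm.

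Wnt, Hedgehog and Notch receptors were detected for 21 of 24 members, with the Hedgehog transducer SMO at 94.6 ppm, LRP5 at 56.0 ppm, FZD2 at 29.97 ppm, FZD6 at 28.9 ppm and NOTCH1 at 28.4 ppm. LGR5, a stem cell marker of the gut, had 1 read. G protein-coupled receptors were the lowest class. Of 60 chemosensory and lipid receptors 31 were detected, or 16 at a minimum of 100 normalized counts, led by the adenosine receptor ADORA1 at 36.9 ppm, LPAR2 at 33.6 ppm, GPRC5C at 22.05 ppm, P2RY11 at 21.4 ppm and the leukotriene B4 receptor LTB4R2 at 16.9 ppm. CYSLTR1, a receptor of cysteinyl leukotrienes, was at 11.2 ppm. The prostaglandin D2 receptors PTGDR and PTGDR2 had no read. Of 69 receptors of amines, acetylcholine and peptides 20 were detected, or 7 at a minimum of 100 normalized counts, and 29 had 3 reads or fewer. CCKBR, the gastrin receptor, was at 26.3 ppm, F2R at 22.96 ppm, ADRA2C at 13.8 ppm, F2RL1 at 13.1 ppm and ADRB1 at 4.85 ppm.

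Nuclear receptors were detected for 34 of 48 members. NR2F6 was high at 132 ppm, followed by ESRRA at 98.96 ppm, NR2C2 at 75.7 ppm, RXRA at 72.8 ppm and NR1H2 at 56.6 ppm. Steroid receptors named here were low, with the glucocorticoid receptor NR3C1 at 0.59 ppm, PGR at 0.27 ppm and ESR1 at 2 reads. Innate immune sensors and adaptors were detected for 15 of 25 members, with the adaptors PYCARD at 75.1 ppm, MYD88 at 42.7 ppm and MAVS at 17.3 ppm. The sensors NLRP1 and IFIH1 were at 37.0 and 16.3 ppm. TLR8 and TLR9 had no read and TLR4 had 2. Among 31 surface proteins that antibodies or imaging agents address, 20 were detected, with CD47 at 254 ppm, CD24 at 218 ppm, EPCAM at 208 ppm, the ganglioside synthase gene B4GALNT1 at 158 ppm and PTK7 at 105 ppm. CD276 was at 84.4 ppm and DLL3 at 5.06 ppm. MSLN and CEACAM6 had no read.

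A list of 32 non-receptor tyrosine kinases and related kinases of blood cells had 25 members detected, among them CSK at 129 ppm, ABL1 at 78.4 ppm, PTK2 at 55.4 ppm, TYK2 at 51.3 ppm and JAK1 at 41.5 ppm. BMX, at 26.7 ppm, stood beside its TEC family paralogs TEC at 1.31 ppm, BTK at 0.20 ppm and TXK at 0.18 ppm. BMX was at 1.41 ppm with the POU2F3 gRNA and at 8.71 and 5.32 ppm with the COLCA2 gRNAs.

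In the metabolic lists 78 of 382 genes were high. All 21 glycolytic genes were detected and 12 were high. GAPDH was at 4617 ppm, the triosephosphate isomerase TPI1 at 1481 ppm, ENO1 at 1311 ppm, the lactate dehydrogenase LDHB at 1309 ppm and ALDOA at 1159 ppm, with PKM at 1045 ppm. The transporters were lower, with SLC16A1 at 42.3 ppm and the glucose transporter SLC2A1 at 14.1 ppm. Gluconeogenic, glycogen and fructose genes had 16 of 22 detected and none high, led by UGP2 at 89.5 ppm, PYGB at 51.8 ppm, GYS1 at 40.1 ppm, KHK at 34.9 ppm and PCK2 at 30.9 ppm, and FBP1 had no read. The pentose phosphate and NADPH list had 16 of 18 detected and 5 high, among them PGD at 329 ppm, TALDO1 at 262 ppm, TKT at 211 ppm, IDH2 at 209 ppm and MTHFD1 at 146 ppm. The malic enzyme ME1 had no read.

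The tricarboxylic acid cycle list had 24 of 25 genes detected and 9 high, with FH at 264 ppm, MDH2 at 262 ppm, MDH1 at 254 ppm, CS at 217 ppm and SDHA at 162 ppm. PDK4, a pyruvate dehydrogenase kinase of fasting, had no read. Amino acid enzymes had 31 of 33 detected and 13 high. The serine synthesis enzyme PHGDH was at 378 ppm, CBS at 377 ppm, glutamine synthetase GLUL at 372 ppm, SHMT2 at 262 ppm and SAT1 at 256 ppm. PSAT1, the next enzyme of serine synthesis, was at 235 ppm. Nucleotide synthesis genes had 29 of 30 detected, with DTYMK at 253 ppm, IMPDH2 at 239 ppm, TYMS at 223 ppm, RRM1 at 208 ppm and RRM2 at 154 ppm, and CDA had no read. Arginine and urea cycle genes had 13 of 16 detected, or 8 at a minimum of 100 normalized counts, with GAMT at 156 ppm, SLC25A15 at 44.6 ppm, SLC7A1 at 44.3 ppm, ARG2 at 36.0 ppm and ASL at 24.8 ppm, and 2 reads of OTC. Creatine kinase B, CKB, was at 459 ppm and the creatine transporter SLC6A8 at 77.6 ppm. CKMT1A and CKMT1B, which are near-identical, were at 30.9 and 32.1 ppm.

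Lipid synthesis genes were also well represented. Fatty acid and lipid genes had 35 of 40 detected and 7 high, led by the desaturases FADS2 at 360 ppm and SCD at 266 ppm, with FABP5 at 264 ppm, FASN at 245 ppm and ACLY at 215 ppm. FABP1 and FABP4 had no read. Cholesterol genes had 23 of 24 detected, with FDPS at 512 ppm, FDFT1 at 170 ppm, PMVK at 164 ppm and SREBF2 at 149 ppm. ABCA1, a cholesterol exporter, had 5.73 normalized counts. FASN was at 178, 155 and 151 ppm in the edited libraries.

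Of 24 eicosanoid synthesis genes 15 were detected, or 9 at a minimum of 100 normalized counts, and 2 were high. PTGES3, a co-chaperone with prostaglandin E synthase activity, was at 633 ppm and ALOX5 at 227 ppm. The phospholipase PLA2G4A was at 110 ppm, LTA4H, which makes leukotriene B4, at 83.9 ppm and PTGES2 at 51.2 ppm. LTC4S, which makes leukotriene C4, was at 3.74 ppm. The cyclooxygenase PTGS2 was at 4.99 ppm and PTGS1 at 0.24 ppm. ALOX15 had 2 reads, and HPGDS, MGST2, PLA2G2A and CBR1 had none.

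Redox enzymes had 32 of 38 members detected and 9 high. Glutathione S-transferase GSTP1 was at 1732 ppm, PRDX2 at 1200 ppm, GPX4 at 854 ppm, PRDX1 at 670 ppm and SOD1 at 559 ppm, and thioredoxin, TXN, was at 537 ppm. NQO1 was at 27.5 ppm. GSTA1, GSTM1, ABCB1 and UGT1A6 had no read. GSTT1 had 1077 normalized counts but no transcript length, so it has no ppm. Alcohol and aldehyde dehydrogenases had 20 of 27 detected, with ALDH1A1 at 238 ppm, ADH5 at 138 ppm, RDH11 at 122 ppm, ALDH9A1 at 117 ppm and ALDH3A2 at 56.9 ppm, and ADH7 had no read.

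The iron list had 18 of 19 members detected. The ferritin chains FTH1 and FTL were at 2464 and 880 ppm, BLVRB at 121 ppm, UROD at 89.3 ppm and the transferrin receptor TFRC at 86.6 ppm. ALAS2, the erythroid enzyme of the first step of heme synthesis, had no read. The ferritins were lower at baseline than in each edited library, where FTH1 was at 5800, 6327 and 6406 ppm and FTL at 2098, 2298 and 2405 ppm. Transmitter synthesis had 4 of 18 members detected, or 8 at a minimum of 10 normalized counts and 2 at 100, among them TPH2, of serotonin synthesis, at 5.90 ppm. SLC5A7, TH, DBH and MAOB had no read and HDC had 1. Digestive hydrolases had 4 of 21 detected, or 7 at a minimum of 10 normalized counts, of which AMY2A, AMY2B and AMY1C at 31.0, 27.9 and 24.7 ppm are near-identical amylase genes whose reads can be split, and PRSS1, CELA3A, CPA1 and PNLIPRP2 had no read.

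Isozyme families show which paralog carried the transcript pool. In 16 of 41 families the leading member had over 90% of the summed level, and in 5 it had under 60%. Lactate dehydrogenase was 71.5% LDHB and 28.5% LDHA. By normalized counts without length LDHB had 61.5%, with a Clopper-Pearson interval of 61.0% to 62.0%, and in the edited libraries its share per length was 67.9%, 66.3% and 65.8%. Phosphofructokinase was shared, with 49.7% PFKP, whereas pyruvate kinase was 99.997% PKM and cytosolic creatine kinase 99.97% CKB. Hexokinase was 79.3% HK1, with HK2 at 20.3%. The branched-chain aminotransferase was 99.9% BCAT2, with 8 reads of BCAT1. SHMT2 had 82.9% of its pair, IDH2 67.4% and SCD 88.4%. ENO1 had 83.5% at baseline and 91.3%, 91.5% and 92.0% in the edited libraries.

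**Figure D5:**
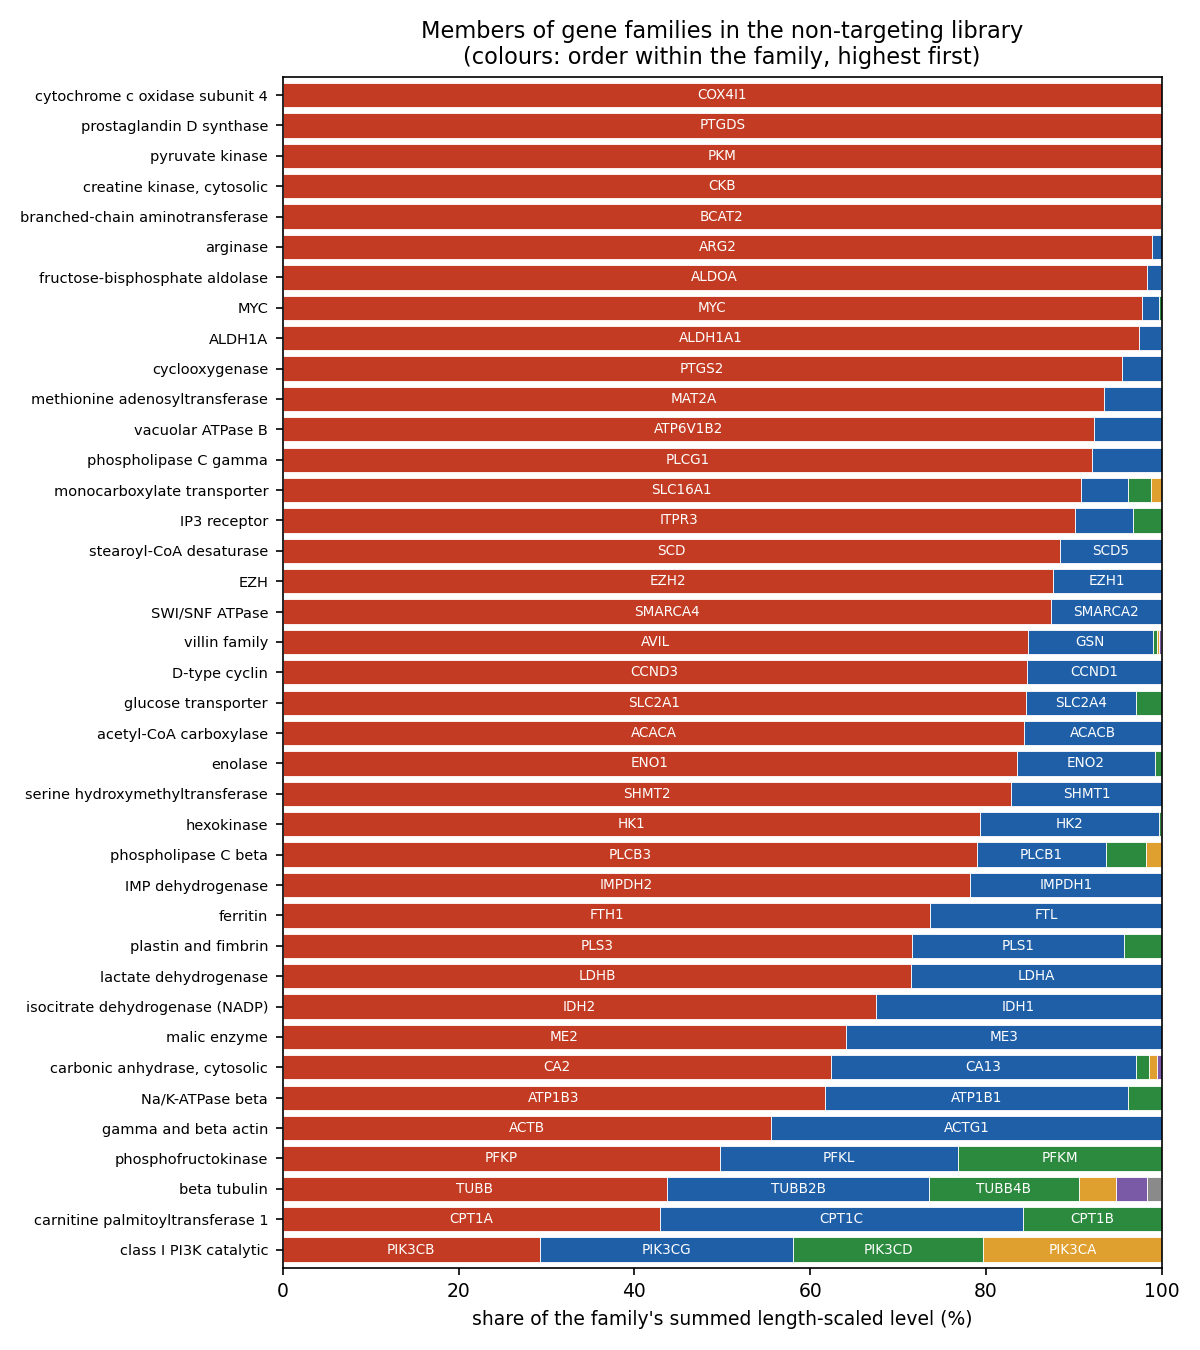
Share of each family's summed length-scaled level (percent) held by each member in the non-targeting library, for isozyme and paralog families ordered by the leading share. Colours give the order within a family and members above 9% are labelled, from COX4I1 at 100% to the class I PI3 kinases, where PIK3CB led with 29.2%.

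Among transport, signalling and structural families, ATP1B3 had 61.7% of the beta subunits of the sodium pump, or 52.3% by counts. In the edited libraries it had 40.3%, 44.6% and 44.6%, and ATP1B1 led in each. Phospholipase C beta was 79.0% PLCB3 (55.2% with the median transcript length), with 1.76% PLCB2, the taste cell isoform. Phospholipase C gamma was 92.1% PLCG1. ITPR3, the receptor isoform of taste and tuft cells, had 90.1% of the inositol trisphosphate receptors. With the median transcript length ITPR2 led in place of ITPR3, which then had 39.8%. AVIL had 84.8% of the villin family, followed by gelsolin, GSN, at 26.5 ppm, and VIL1 was at 0.32 ppm. In the edited libraries AVIL had 13.4%, 41.7% and 32.7%. CCND3 had 84.6% of the D-type cyclins, SMARCA4 87.4% of its ATPase pair (58.2% with the median transcript length), EZH2 87.6% of the EZH pair (59.7%) and ARG2 98.9% of the arginases. ALDH1A1 had 97.4% of the ALDH1A genes and PTGS2 95.4% of the cyclooxygenases, the latter on 276 reads of both genes. Among the class I PI3 kinases PIK3CA led in place of PIK3CB with the median transcript length and by counts. CA2 led the cytosolic carbonic anhydrases with 62.4%, and CA13 led by counts.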

How the data were processed

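Poly(A) RNA of NCI-H1048 was sequenced in 4 libraries; per the labels' protocols, TRIzol-chloroform extraction and a DNase step preceded NEBNext poly(A) selection and Ultra II library preparation. The submitters' processing notes name hg38, Salmon and DESeq2 without versions or roles, and the use of strand is not given in the sources used here. What the authors deposited, per the file headers, is a table of normalized counts for genes (a signal on a linear scale). In every library 100% of them were whole multiples of 1 step (tolerance 1e-06 of a step), so whole counts were recovered, called reads here. The baseline values equal these counts divided by 1.05. Whether they are observed reads or rounded Salmon estimates is not given. Error in assigning reads to genes is therefore outside the intervals, and a gene with no read may be an estimate rounded down.

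Rows of 1 symbol were summed (38145 rows, 35979 symbols, 1149 with more than 1 row). GENCODE release 29 gave type, position and length for 34249 symbols by identifier and 879 by symbol, and 851 symbols (0.109% of counts) had no length. The principal transcript (the longest where several) set the length, or the longest transcript where none is marked, and ppm sum to 1000000 over symbols with a length. Detected means at least 20 normalized counts, and 3 reads is the limit that a count of 0 allows. Intervals are exact (Poisson, Clopper-Pearson) at 95%, from scipy 1.17.1 in Python 3.11.15 with pandas 2.3.3 and numpy 2.4.6. The steps were tested on simulated data.

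The 54 lists (1653 genes, all matched to a row) and 41 families came from general knowledge; the library and the lists were chosen with earlier results of these data known. Named genes are the 4 markers, the 20 highest genes, up to 5 highest members of each list, members at 3 reads or fewer that define a list, paralogs of named genes, family members, and the 25 regulators, 15 receptors and 15 enzymes with the highest ppm. Other list members named, and genes below the detection limit, were chosen after their values were seen. Promoter windows come from RefSeq (GRCh38.p14), matched by Ensembl identifier or symbol; POU2F3, SOX9, C11orf53, DLX5, KRT7, COL2A1, ASCL2, MYC and ALOX5 had no entry. Some genes of the lists are not reported here. No fit, test or p-value was used, because the baseline is 1 library. The alternatives were other minimums, values per row, other lengths and no length.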

Additional observations from a re-analysis of the deposited data

How the results depend on the processing

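The baseline rests on 1 library, so no replicate could be left out. No paired analysis was possible because no result comes from a test and only the COLCA2 group has more than 1 library. Counts of detected genes, over all symbols and protein-coding genes, stayed within 1.5 times of their main values under every alternative minimum and with rows not summed. Of 54 lists, 14 moved by over 1.5 times with a minimum of 100 normalized counts and 3 with a minimum of 10. With the minimum of 100 the detected members were 2 for ionocyte, 3 for ciliated, 1 for club and goblet, 3 for basal and squamous, 2 for endothelial, 1 for blood and immune, 5 for neural and muscle and 4 for cancer-testis genes, and with the minimum of 10 club and goblet had 8. For high members, 3 lists moved with the longest transcript, 15 with the median length and 10 by counts without length, among them tuft (5) and simple epithelial (4) with the median length and neural and muscle (0) by counts. With the longest transcript POU2F3 was at 457 ppm, AVIL at 189 ppm, SOX9 at 487 ppm and LRMP at 147 ppm, and with the median length at 322, 137, 178 and 275 ppm. The chromatin list had 22 high members with the median length and 27 by counts, in place of 9, and the apoptosis list 0 and 1 in place of 3. With the median length the nuclear receptor and HOX lists had 0 high members in place of 1 each, the cell cycle list 3 in place of 7 and the Wnt and Notch receptor list 4 in place of 0. By counts the signal-responsive factors had 4 high members in place of 7. The 100 most abundant genes held 16.2% of reads with rows not summed. The cause of these moves was not tested. Another member led by counts for carbonic anhydrases (CA2 43.7%), for PI3 kinases by median length (PIK3CB 24.97%) and by counts (27.7%), and for inositol trisphosphate receptors by median length (ITPR3 39.8%).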

Other observations

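Genes outside the lists that were noticed only after their values had been seen include a pair of cartilage collagens. COL2A1, the main collagen of cartilage, had 72484 normalized counts and 1287 ppm, rank 95 of the protein-coding genes, and COL9A3 was at 277 ppm. A list of 24 cartilage genes written afterwards had 10 members detected, or 41.7%, against 70.6% of all protein-coding genes. Its 3 high members were COL2A1 and COL9A3, already noticed, and the marker SOX9, so this count was known before the list was written. The partner chains COL9A1 and COL9A2 were at 0.25 and 4.09 ppm, COL11A1 and COL11A2 at 0.73 and 2.20 ppm, SOX6 at 7.62 ppm and SOX5 at 0.10 ppm, and aggrecan, ACAN, had 4.77 normalized counts. COL2A1 was at 364, 325 and 271 ppm with the POU2F3 gRNA and the COLCA2 gRNAs, and COL9A3 at 246, 205 and 209 ppm. A direction of the list was not tested.

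Several other high genes belonged to no list and were also named after their values were seen. ANXA1, a phospholipid-binding annexin, was at 2616 ppm and rank 36, and at 1417, 1736 and 1733 ppm in the edited libraries. The growth factor MDK was at 1603 ppm, CRYM, a thyroid hormone-binding protein, at 375 ppm and the bone morphogenetic protein antagonist SOSTDC1 at 266 ppm. CRYM was at 11.95, 63.2 and 50.1 ppm in the edited libraries.

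A list of 24 antigen presentation genes, also written afterwards, had 23 members detected and 6 high. HLA-B was at 974 ppm, HLA-C at 867 ppm and B2M at 667 ppm, while the peptide transporter gene TAP1 was at 53.3 ppm and the class I activator NLRC5 at 7.14 ppm. The class II genes CD74 and HLA-DRA were at 3.59 and 3.49 ppm. The HLA symbols had several rows, which were summed, and their lengths and read assignment are uncertain. Of 30 replication and mitosis genes all were detected and 23 were high, among them PCNA at 364 ppm, TOP2A at 209 ppm and MKI67 at 128 ppm.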
